A study of Caenorhabditis elegans with 39 samples.

Results

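The 5 superoxide dismutase genes, the 3 catalase genes and the 2 metallothionein genes of the nematode Caenorhabditis elegans were followed in messenger RNA libraries of first-stage (L1) larvae. These 10 genes were chosen by sequence name from the 44968 features of the deposited count tables. They are sod-1 (C15F1.7), sod-2 (F10D11.1), sod-3, sod-4 (F55H2.1), sod-5 (ZK430.3), ctl-1 (Y54G11A.6), ctl-2 (Y54G11A.5), ctl-3 (Y54G11A.13), mtl-1 (K11G9.6) and mtl-2 (T08G5.10). No row was named C08A1.1, the sequence name first given for sod-3, so sod-3 was read from C08A9.1, the row that the Ensembl WBcel235 annotation pairs with that symbol. All 10 passed the filter on low counts in each of the 3 fits used below.

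All 39 libraries came from the wild-type laboratory strain N2. The larvae were F3 descendants of animals that had been held in long-term dauer, in short-term dauer or under control conditions. The dauer is an arrested larval form that worms enter when food is scarce. Starved larvae were collected after 24 h without food, with 7 libraries from long-term dauer descendants, 9 from short-term dauer descendants and 12 from control descendants. Fed larvae were collected after 18 h of feeding, with 3, 4 and 4 libraries from the same ancestries. The long-term dauer libraries that come in both feeding states are named LC3_40d, LC3_49d and LC4_49d, so LC3 occurs with both 40d and 49d. Any part of these name marks in the values was not tested. Per the labels' protocols, the fed larvae went through more washes, so feeding, hours in culture and washing cannot be told apart. The submitters call the libraries biological replicates, but no label says which came from separate cultures, so the p-values measure the spread between these libraries.

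Superoxide dismutases convert superoxide, a by-product of respiration, to hydrogen peroxide, and catalases break hydrogen peroxide down to water and oxygen. Metallothioneins are small cysteine-rich proteins that bind zinc and other metals. In C. elegans, sod-3 and mtl-1 are widely used as readouts of DAF-16, the FOXO transcription factor that insulin-like signalling through the receptor DAF-2 restrains. DAF-16 is known for its part in dauer formation and in the survival of L1 starvation.

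Batch 1 held 24 libraries with 20950821 to 30313127 counts in genes each. Batch 2 held 15 libraries, all of starved larvae, with 8836723 to 13740490. Values are CPM, counts scaled to one common library size, with TMM factors that match libraries on the bulk of their genes. Those factors had a median of 1.04 in starved and 0.802 in fed batch 1 libraries. Of the 28 starved libraries, long-term dauer LC4_49d went against its label, with 972 CPM of the cuticle collagen col-17, against 0 to 9.64 CPM in 24 other starved libraries and 600 to 1540 CPM in fed ones. Control LC6, control 14 and short-term dauer 14 also stood apart. They had at most 3.58 CPM of col-17, yet T22F3.11, at 671 to 1690 CPM in those 24 starved libraries, was at 4.25 to 6.30 CPM in these 3, and at 4.28 to 10.7 CPM in fed libraries. Values without these libraries are given beside the results they move most.

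Levels are first compared between genes, per kilobase of exon. In the 27 starved libraries without LC4_49d, sod-1 and mtl-1 led at a mean of 175 and 138 CPM per kb, and ctl-2 followed at 71.9. Next came sod-2 at 44.5, ctl-1 at 42.4, sod-4 at 33.7 and ctl-3 at 31 CPM per kb, and each of these 4 differed from the next by less than the spread over libraries. The lowest were mtl-2 at 13.2, sod-3 at 7.22 and sod-5 at 1.15 CPM per kb. In the 11 fed libraries sod-1 had 265 CPM per kb and sod-2 89.4, whereas mtl-1 stood at 11.4 and sod-3 at 0.438. There mtl-2, at 16.6 CPM per kb, lay above mtl-1, by less than the spread over libraries. Over the 24 starved libraries without those 3 as well, mtl-1 averaged 109, sod-3 5.13 and mtl-2 10.8 CPM per kb. Without fed control LC12 the fed means were 15.2 CPM per kb for mtl-2 and 6.81 for mtl-1.

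**Figure D1:**
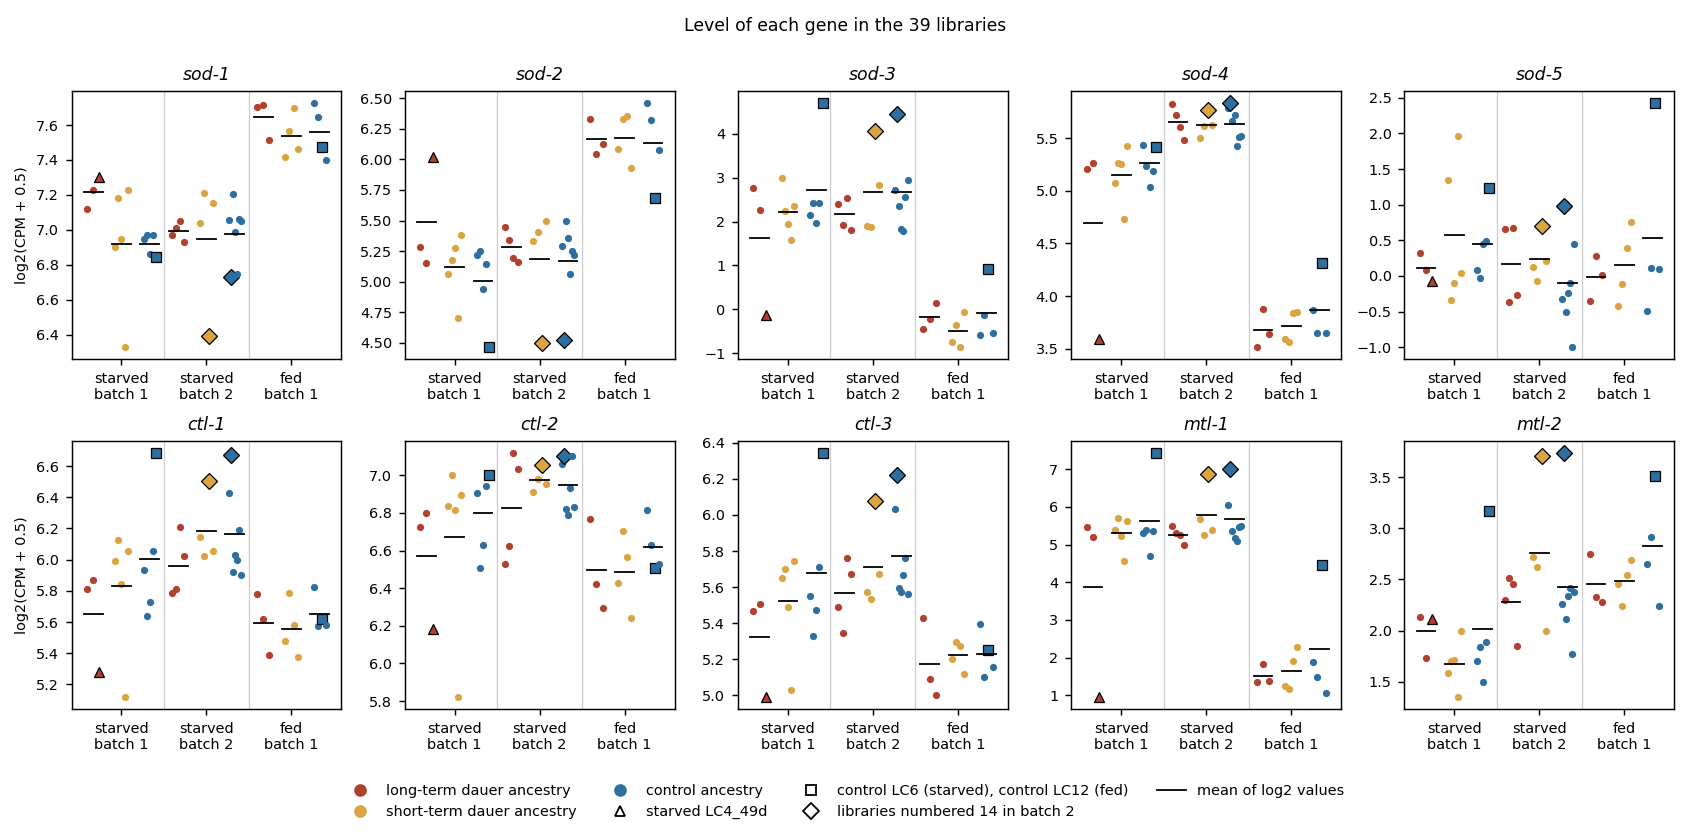
Level of each of the 10 genes on the log2 scale of CPM plus 0.5, with 1 point per library, starved batch 1, starved batch 2 and fed batch 1 from left to right and long-term dauer, short-term dauer and control ancestry from left to right within each. Black lines are means, and outlined symbols mark LC4_49d, LC6, LC12 and the 2 libraries numbered 14. Starved libraries lie above fed ones for sod-3, sod-4 and mtl-1, apart from LC4_49d, and below them for sod-1 and sod-2, again apart from LC4_49d for sod-2.

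The make-up of the superoxide dismutase messages differed between the states. The cytosolic copper/zinc enzyme sod-1 made up 66.8% ± 3.36 of the family's CPM per kb in the 27 starved libraries and 72.4% ± 1.48 in the 11 fed ones (SD). The mitochondrial manganese enzyme sod-2 made up 17% ± 2.08 in starved larvae and 24.3% ± 2.39 in fed larvae. The secreted copper/zinc enzyme sod-4 had a share of 12.9% ± 2.35 in starved larvae and 2.79% ± 0.625 in fed larvae. Thus sod-4 held more of the family's messages in starved larvae, while sod-1 remained the main one in both states. Over the 24 starved libraries the shares were 67.6% for sod-1, 17.6% for sod-2 and 12.4% for sod-4. The summed family level was 262 ± 30.1 CPM per kb in starved larvae and 367 ± 32.4 in fed larvae. That gap depends on scaling, since on library totals without TMM factors the sums were 284 ± 23.1 in starved larvae and 303 ± 26.3 in fed larvae. In these bulk samples, fewer cells that express a gene and less RNA per cell cannot be told apart.

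For each ancestry, starved larvae were set against fed larvae of batch 1, with edgeR's quasi-likelihood test and Benjamini-Hochberg adjustment over all 19406 genes tested. Starved larvae had more sod-3, sod-4 and mtl-1 in all 3 ancestries, and less sod-1 and sod-2 in short-term dauer and control descendants. In control descendants 6 of the 10 genes were called at an adjusted p-value under 0.05, with sod-3, sod-4, ctl-3 and mtl-1 higher and sod-1 and sod-2 lower. Over all genes, 25.0% were called higher and 28.7% lower in starved control descendants. In short-term dauer descendants 3 were higher (sod-3, sod-4 and mtl-1) and 3 lower (sod-1, sod-2 and mtl-2), with 30.2% of all genes higher and 28% lower. In long-term dauer descendants the same 3 were higher and none lower, with 6.33% of all genes higher and 5.81% lower. Without LC4_49d, sod-2 was called lower there as well, and 14.9% of all genes were called higher and 24.0% lower. With LC4_49d kept, omitting fed LC3_40d, LC3_49d or LC4_49d, or starved LC3_40d or LC3_49d, left 0 of the 10 called in long-term dauer descendants, and without starved short-term dauer LC14 there were 5. The number called over all genes in these descendants also varied widely with single libraries left out, as given in the last section. These counts are thus not a result about the 10 genes by themselves. The count of 0 lower in long-term dauer descendants was also obtained with DESeq2, and 2 of the 10 (sod-1 and sod-2) had lower values at an unadjusted p under 0.05 in edgeR.

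**Figure D2:**
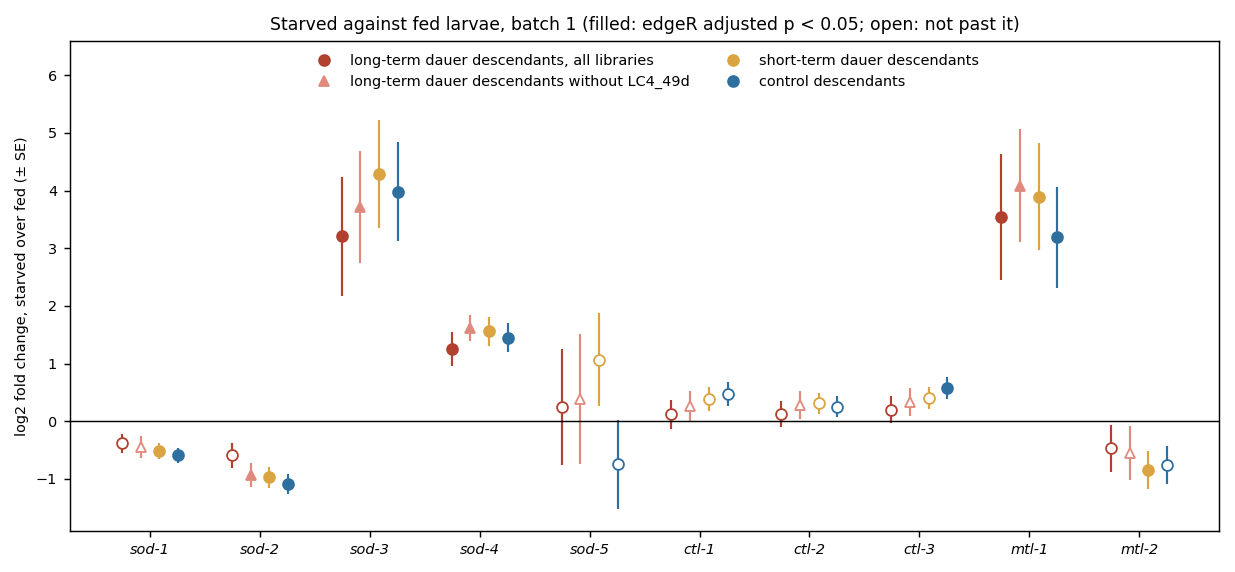
Log2 fold change of each gene, starved over fed, with its standard error, in long-term dauer descendants with all libraries and without LC4_49d, in short-term dauer descendants and in control descendants, all of batch 1. Filled symbols passed an edgeR adjusted p of 0.05. The values for sod-3 and mtl-1 lie between 3.19 and 4.29, those for sod-4 between 1.25 and 1.61, and those for sod-2 between -1.09 and -0.59.

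Of the mitochondrial enzymes, sod-3, the inducible manganese superoxide dismutase, was nearly absent from fed larvae. It had 6.30, 4.28 and 0.411 CPM in starved long-term dauer descendants, the last in LC4_49d, against 0.229, 0.360 and 0.601 CPM in their fed counterparts. Starved short-term dauer descendants had 7.49, 4.24, 3.33, 2.51 and 4.63 CPM, against 0.0984, 0.282, 0.0481 and 0.459 CPM in fed ones. In control descendants the starved libraries had 3.93, 4.83, 3.40, 4.83 and 25.5 CPM and the fed libraries 0.161, 0.417, 1.40 and 0.190 CPM. The groups did not overlap in short-term dauer and control descendants, and in long-term dauer descendants they overlapped through LC4_49d alone. The log2 fold change was 4.29 ± 0.93 in short-term dauer descendants (SE, adjusted p = 0.00068, edgeR) and 3.98 ± 0.855 in control descendants (adjusted p = 0.000559). In long-term dauer descendants it was 3.21 ± 1.03 (adjusted p = 0.0483), and 3.72 (adjusted p = 0.0045) without LC4_49d. The fed values rest on 1 to 36 counts per library. Control LC6 was the highest starved library and control LC12 the highest fed one. The value in control descendants was 2.90 without LC6 (adjusted p = 0.00134), 5.14 without LC12 (adjusted p = 0.000284) and 4.04 without LC4_49d and both of these.

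The constitutive partner sod-2 went the other way. Starved larvae had 38.5, 35.1 and 64.2 CPM in long-term dauer descendants, the last in LC4_49d, against 80.2, 65.6 and 69.2 CPM in fed larvae. In short-term dauer descendants, the starved libraries had 32.8, 35.8, 38.2, 25.6 and 41.1 CPM and the fed libraries 67.2, 80.2, 81.2 and 60.4 CPM. In control descendants, they were at 36.7, 37.5, 30.2, 34.9 and 21.6 CPM when starved and 87.5, 79.5, 50.9 and 66.9 CPM when fed. With TMM factors, every starved library lay below every fed library of its ancestry, with LC4_49d the closest to the fed range. On library totals LC4_49d lay above fed LC3_49d, so the separation in long-term dauer descendants depends on scaling. The log2 fold change was -0.98 in short-term dauer descendants (SE 0.178, adjusted p = 0.000105, edgeR) and -1.09 in control descendants (SE 0.179, adjusted p = 3.04e-05). In long-term dauer descendants it was -0.59 (adjusted p = 0.0685), and -0.94 (adjusted p = 0.000871) without LC4_49d. Over 30 alternatives the smallest change was -0.62 in short-term dauer and -0.38 in long-term dauer descendants. The 2 manganese enzymes are close in sequence, and how reads shared by such genes were assigned is not given in the sources used here.

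Among the copper/zinc enzymes, sod-1 had 139, 149 and 158 CPM in starved and 208, 209 and 183 CPM in fed long-term dauer descendants. Short-term dauer descendants had 119, 145, 123, 79.9 and 150 CPM when starved, against 170, 189, 207 and 176 CPM when fed. Control descendants had 123, 125, 116, 125 and 114 CPM when starved, against 211, 200, 177 and 169 CPM when fed. As for sod-2, no starved library reached the fed range of its ancestry with TMM factors. On library totals the ranges overlapped in long-term and short-term dauer descendants. The log2 fold change was -0.38 in long-term dauer (adjusted p = 0.109), -0.51 in short-term dauer (adjusted p = 0.00275) and -0.59 in control descendants (adjusted p = 0.00074, edgeR). This difference depends on scaling: with library totals in place of TMM factors, the call in short-term dauer descendants was lost (-0.17, adjusted p = 0.0899).

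The secreted enzyme sod-4 was higher in starved larvae. It had 36.5, 38.0 and 11.6 CPM in starved long-term dauer descendants, the last in LC4_49d, against 10.9, 14.2 and 12.0 CPM in fed ones. In starved short-term dauer descendants it had 33.3, 37.8, 37.6, 26.2 and 42.6 CPM, against 11.6, 11.3, 13.9 and 13.9 CPM in fed ones. Starved control descendants had 42.8, 37.3, 32.4, 36.0 and 42.3 CPM, against 14.1, 12.0, 19.4 and 12.0 CPM in fed ones. The groups were apart in all ancestries once LC4_49d was left out. The log2 fold changes were 1.25 ± 0.301 in long-term dauer (adjusted p = 0.0199; 1.61 without LC4_49d), 1.56 ± 0.253 in short-term dauer (adjusted p = 3.35e-05) and 1.45 ± 0.252 in control descendants (adjusted p = 5.26e-05, edgeR).

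The minor cytosolic enzyme sod-5 was near the detection limit, with 0 to 124 counts in starved libraries and 4 to 125 in fed ones. It did not pass the test in any ancestry, with log2 fold changes of 0.25 (SE 1.01) in long-term dauer, 1.07 (SE 0.802) in short-term dauer and -0.75 (SE 0.77) in control descendants. The negative value in control descendants rests on fed LC12, at 4.86 CPM beside 0.214 to 0.583 CPM in the other 3 fed control libraries, and turned to 1.12 without it.

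The catalases ctl-1, ctl-2 and ctl-3, of which ctl-1 encodes the cytosolic and ctl-2 the peroxisomal enzyme, differed little between the states. They are near-identical neighbours on chromosome II, so their separate levels are uncertain where reads are shared. Starved larvae had 38.4 to 57.9, 34.3 to 69.2 and 49.2 to 102 CPM of ctl-1 in long-term dauer, short-term dauer and control descendants, against 41.4 to 54.4, 41.1 to 54.6 and 47.1 to 56.2 CPM in fed larvae. For ctl-2 the same starved groups had 72.1 to 111, 56.1 to 127 and 90.5 to 128 CPM, against 78.1 to 109, 75.3 to 104 and 90.4 to 112 CPM in the fed groups. All of these ranges overlapped. Without LC4_49d, the 2 starved long-term dauer libraries left lay above the 3 fed ones for ctl-1 and ctl-3, and overlapped them for ctl-2. For ctl-3, starved control descendants had 46.3, 39.7, 43.9, 51.9 and 80.7 CPM, against 41.6, 33.8, 37.6 and 35.2 CPM in fed ones.

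Of the 9 catalase comparisons, ctl-3 in control descendants alone was called, at a log2 fold change of 0.57 ± 0.19 (SE, adjusted p = 0.0142, edgeR). Without starved control LC6, its highest library, that call was lost (0.32, adjusted p = 0.0678). Control descendants otherwise had log2 fold changes of 0.48 for ctl-1 (adjusted p = 0.057) and 0.25 for ctl-2 (adjusted p = 0.258). The largest in short-term dauer descendants was 0.40 for ctl-3 (adjusted p = 0.0713), and in long-term dauer descendants 0.20 for ctl-3 (adjusted p = 0.541). All 9 were positive. Leaving out starved short-term dauer LC14 brought all 3 catalases past the threshold in short-term dauer descendants, and so did library totals in place of TMM. Without control LC6, ctl-1 and ctl-3 passed there (0.39 and 0.40, adjusted p = 0.0447 and 0.016). Under library totals the median log2 fold change over the 19406 genes stood at 0.324 in long-term dauer, 0.680 in short-term dauer and 0.406 in control descendants, against 0.0877, 0.278 and 0.151 with TMM. In control descendants ctl-1, ctl-2 and ctl-3 then had 0.71, 0.50 and 0.80, to be read against that median of 0.406. The make-up of the family differed little, as ctl-2 made up 49.6% ± 2.96 of the catalase CPM per kb in the 27 starved libraries and 51.8% ± 1.36 in fed ones.

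The metallothionein mtl-1 was higher in starved larvae of all 3 ancestries, and mtl-2 was called lower in short-term dauer descendants alone. In starved long-term dauer descendants mtl-1 had 43.9, 36.3 and 1.44 CPM, the last in LC4_49d, against 2.06, 3.03 and 2.08 CPM in fed ones. Starved short-term dauer descendants had 41.4, 51.6, 36.9, 23.1 and 48.6 CPM, against 1.87, 1.74, 3.27 and 4.32 CPM in fed ones. Starved control descendants had 39.3, 41.3, 25.3, 40.6 and 172 CPM, against 3.16, 2.29, 21.4 and 1.57 CPM in fed ones. Apart from LC4_49d, each starved library exceeded each fed one, with control LC6 far above the rest when starved and control LC12 far above the rest when fed. The log2 fold change of mtl-1 was 3.54 ± 1.09 in long-term dauer (adjusted p = 0.0428; 4.09 without LC4_49d), 3.90 ± 0.928 in short-term dauer (adjusted p = 0.00157) and 3.19 ± 0.879 in control descendants (adjusted p = 0.0046, edgeR). In control descendants it was 2.31 without LC6 (adjusted p = 0.0199), 4.91 without LC12 (adjusted p = 0.000242) and 4.03 without LC4_49d and both of these.

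For mtl-2, starved long-term dauer descendants had 3.88, 2.83 and 3.82 CPM, against 6.23, 4.52 and 4.35 CPM in fed ones. The starved short-term dauer libraries had 2.5, 2.75, 2.78, 2.05 and 3.48 CPM, against 4.97, 4.23, 5.34 and 5.97 CPM in the fed libraries. In control descendants, mtl-2 had 2.74, 3.08, 2.33, 3.20 and 8.49 CPM when starved, against 5.79, 7.04, 10.9 and 4.24 CPM when fed. With TMM factors, starved libraries lay below fed ones except in control descendants, where LC6 lay within the fed range. On library totals the ranges overlapped in long-term and short-term dauer descendants too. The log2 fold change was -0.47 in long-term dauer (adjusted p = 0.421), -0.85 in short-term dauer (adjusted p = 0.0342) and -0.76 in control descendants (adjusted p = 0.0572, edgeR). Without LC6, mtl-2 was called lower in control descendants too (-1.29, adjusted p = 0.000179), whereas without LC12 the value there was -0.40 (adjusted p = 0.304), and without LC4_49d and both of these it was -0.95 (adjusted p = 0.00046). The call in short-term dauer descendants was lost without fed LC11, LC13 or LC14 or without starved LC11, LC12 or LC14. It was also lost with library totals in place of TMM factors, so it depends on scaling. Each time the adjusted p was above 0.05 and the value still below 0. The ratio of mtl-1 to mtl-2 per kb was 10.9 ± 3.27 in the 27 starved libraries, with a lowest value of 6.17, and 0.576 ± 0.435 in the 11 fed ones, with a highest value of 1.83. In LC4_49d it was 0.350.

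Whether ancestral dauer altered these responses was tested as the difference between the starved-over-fed change in dauer descendants and that in control descendants. None of the 10 genes was called for long-term or for short-term dauer, by edgeR or by DESeq2, and none had an unadjusted p under 0.05. Over all genes edgeR called 0% for either. The differences for long-term dauer were -0.77 ± 1.32 for sod-3, 0.50 ± 0.282 for sod-2 and 0.35 ± 1.29 for mtl-1 (log2, SE, adjusted p = 0.916, 0.605 and 0.965). Those for short-term dauer were 0.31 ± 1.16 for sod-3, 0.11 ± 0.253 for sod-2 and 0.71 ± 1.14 for mtl-1 (adjusted p = 1 for each). For sod-3 and mtl-1 the standard errors exceeded the differences themselves, so a like response was not shown. Without LC4_49d the long-term dauer differences were -0.25 for sod-3, 0.16 for sod-2 and 0.91 for mtl-1. Single control libraries turned the sign: for long-term dauer, sod-3 stood at 0.31 without LC6 and mtl-1 at -1.37 without LC12, and for short-term dauer sod-3 stood at -0.85 and mtl-1 at -1.02 without LC12.

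Among starved larvae of both batches, with batch as a term, none of the 10 genes was called between long-term dauer and control, between short-term dauer and control or between long-term and short-term dauer. edgeR called 0% of all 15980 genes in each. DESeq2 also called none of the 10. At an unadjusted p under 0.05, edgeR found ctl-1 and ctl-3 lower in long-term dauer descendants than in control descendants, and none in the other 2 comparisons. The lowest, median and highest values of sod-3 were 0.411, 4.28 and 6.30 CPM in long-term dauer (n = 7), 2.51, 4.24 and 16.3 in short-term dauer (n = 9) and 2.97, 4.83 and 25.5 in control descendants (n = 12). The medians were close and the spread lay in single libraries.

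The log2 difference in sod-3 between starved long-term dauer and control descendants was -1.01 ± 0.503 (adjusted p = 0.388, edgeR). Within batches it was -1.25 in batch 1 and -0.83 in batch 2. Without control LC6, control 14, short-term dauer 14 and LC4_49d it was -0.03 ± 0.228. For mtl-1 the same difference was -0.86 ± 0.443 (adjusted p = 0.403), with -1.26 in batch 1, -0.56 in batch 2 and -0.07 ± 0.139 without the 4 libraries. For ctl-3 it was -0.31 ± 0.131 (adjusted p = 0.33) and -0.09 ± 0.083 without them. Control LC6, control 14 and short-term dauer 14 had the highest values of these genes among starved libraries, and LC4_49d the lowest. Apart from LC4_49d, they were singled out after their values were seen, so smaller differences without them follow in part from that choice. The values without these 4 of 28 libraries are a description and not a test. Between starved short-term dauer and control descendants the differences were -0.45 ± 0.446 for sod-3 and -0.25 ± 0.397 for mtl-1 (adjusted p = 1 for both).

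Among fed larvae none of the 10 genes was called in any of the 3 comparisons of ancestry, by edgeR or by DESeq2, and none had an unadjusted p under 0.05. Over all 16132 genes edgeR called 0% in each. The differences in mtl-1 were -1.67 ± 0.943 for long-term dauer and -1.42 ± 0.834 for short-term dauer against control (log2, SE, adjusted p = 0.932 and 0.881). Without fed control LC12 they were 0.06 and 0.32. For sod-5 the same 2 differences were -1.72 and -1.28, and 0.15 and 0.59 without LC12. Without that library, sod-3 no longer passed the filter on low counts and was not tested.

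As given above, 4 starved libraries and 1 fed library shaped much of the variation, and each was compared with the libraries of its feeding state and batch that did not stand apart (11 for control LC6, 13 for the 2 numbered 14). Of the 10 genes, control LC6 lay above the range of the others in 6 and below it in 1, control 14 above in 7 and below in 2, and short-term dauer 14 above in 6 and below in 2. Set against all other starved libraries of its batch, control LC6 kept these counts, and control 14 lay above in 7 and below in 0. Short-term dauer 14 then lay above in 0 and below in 2. These libraries were singled out after their values were seen, so the counts are a description and not a test. The share over all genes is not given here. In control LC6, sod-3 was 5.95 times and mtl-1 4.24 times the median of the others, whereas sod-2 was 0.602 times. Control 14 and short-term dauer 14 had 21.4 and 16.3 CPM of sod-3, 129 and 116 CPM of mtl-1, 12.8 and 12.5 CPM of mtl-2, and 22.5 and 22.1 CPM of sod-2. All 3 showed the same pattern: the 2 metallothioneins, sod-3, ctl-1 and ctl-3 high, and sod-2 low. They were 2 control libraries and 1 short-term dauer library, from both batches, and none was a long-term dauer library. With 3 such libraries among 28 starved ones, of which 7 were long-term dauer, this is not read as a trait of ancestry. Whether the 2 libraries numbered 14 are separate cases is not known. As deviations from their group means they correlated at r = 0.837 over 8702 genes, the highest of 30 same-numbered pairs. Both were singled out for like departures from their groups, so a high r follows in part from that choice. It cannot show whether they are separate.

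**Figure D3:**
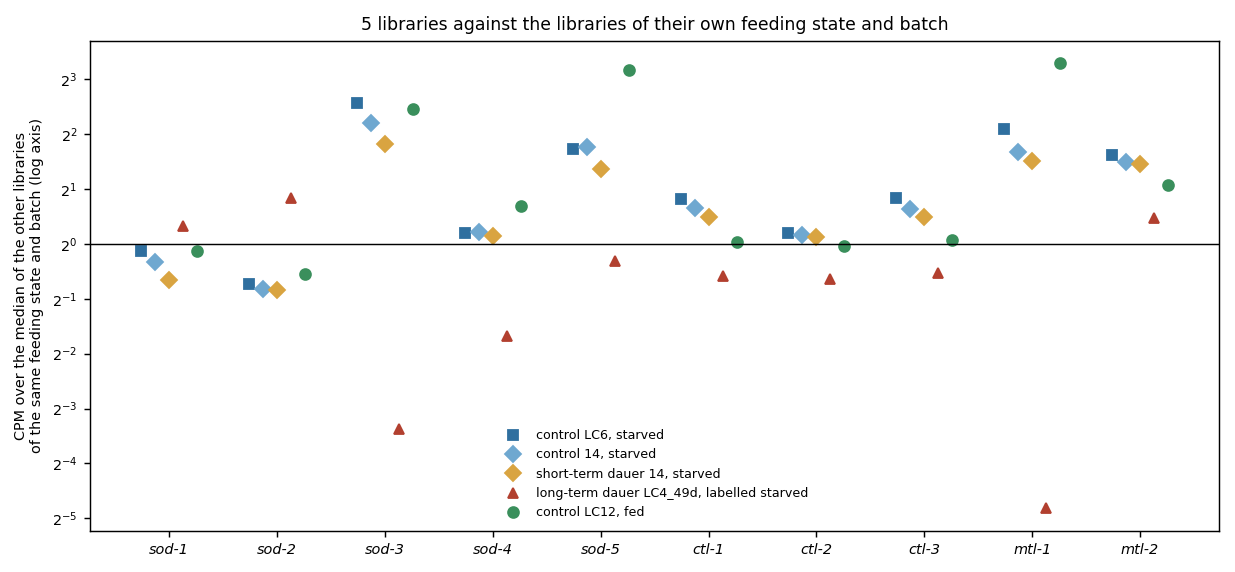
CPM of each gene in 5 libraries, divided by the median of the libraries of the same feeding state and batch that did not stand apart, on a log axis. The 3 starved libraries control LC6, control 14 and short-term dauer 14 follow the same course, with sod-3 up to 5.95 times and sod-2 down to 0.602 times the median in control LC6, while LC4_49d is low for mtl-1 (0.0354 times), sod-3 and sod-4.

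Other genes moved in these 3 libraries too. The lipase lipl-3 was at 7.91, 7.21 and 5.99 CPM in control LC6, control 14 and short-term dauer 14, against 18.0 to 49.1 CPM in the 24 other starved libraries and 0.139 to 0.590 CPM in fed ones. The insulin-like receptor gene daf-2 was at 621, 549 and 456 CPM in them, above the 140 to 440 CPM of the 24, and daf-16, at 325, 379 and 347 CPM, lay within their range of 160 to 417 CPM. The summed level of 4 body wall muscle genes was 14700, 11900 and 9640 CPM, against 3060 to 9970 CPM in the 24, and that of 9 intestinal genes was 3940, 3610 and 3260 CPM, against 1340 to 2880 CPM. The sum of 12 adult and germline genes was 12.0, 9.24 and 15.7 CPM, against 7.87 to 80.4 CPM in the 24 and 11.9 to 17.8 CPM in fed libraries. The part of these differences in the values of the 10 genes was not tested.

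Fed control LC12 lay above the other fed libraries for 5 of the 10 genes, with mtl-1 at 9.81 times, sod-5 at 9.0 times and sod-3 above the range as well, and below them for sod-2. Its col-17 level, 1040 CPM, was within the fed range. The library labelled LC4_49d starved had mtl-1 and sod-3 at fed levels, its sod-4 within the fed range and its sod-2 at 1.79 times the median of 11 starved batch 1 libraries, control LC6 left out. Starved short-term dauer LC14 was compared with the 10 starved batch 1 libraries other than LC4_49d and control LC6. It lay below them in 9 of the 10 genes and above them in sod-5. Against all 12 other starved batch 1 libraries, it lay below in 4 genes and above in sod-5. It had the highest TMM factor, 1.75, and the adult and germline sum of 80.4 CPM. Of its reads 12.6% fell in no feature, against 1.75% to 4.74% in the other 38 libraries, and the part of this in its values was not tested. On library totals it was below the 10 in none of the 10 genes and above them in sod-2, sod-4 and sod-5, so its low values depend on the scaling.

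Across the 27 starved libraries, taken as deviations from their batch means, some of the 10 genes varied together. The correlation was 0.906 between sod-3 and mtl-1, 0.862 between mtl-1 and mtl-2 and 0.970 between ctl-1 and ctl-3 (Pearson's r over 27 libraries, of 45 pairs). It was 0.786 between sod-1 and sod-2 and -0.643 between sod-2 and sod-3. These values describe the libraries, which share scaling and preparation, and the 3 libraries that stood apart were the 3 highest for sod-3, mtl-1 and mtl-2. Over the 24 libraries without them, the correlation was 0.596 between sod-3 and mtl-1, 0.400 between mtl-1 and mtl-2, 0.940 between ctl-1 and ctl-3 and 0.801 between sod-1 and sod-2. That between sod-2 and sod-3 changed sign, to 0.340.

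**Figure D4:**
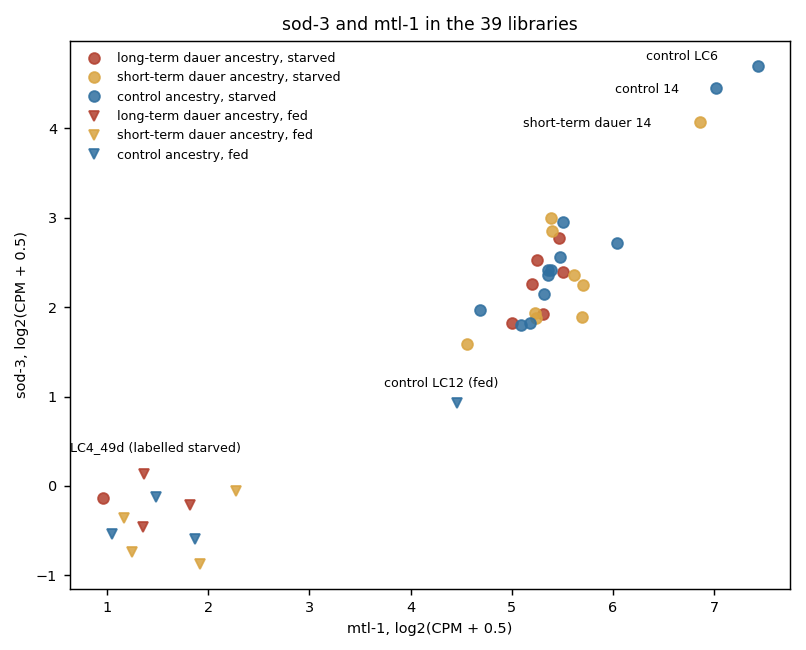
Level of sod-3 against mtl-1 in the 39 libraries, both on the log2 scale of CPM plus 0.5, with circles for starved and triangles for fed larvae and colours for ancestry. Control LC6, control 14 and short-term dauer 14 lie at the upper right, fed control LC12 lies between the fed and starved libraries, and LC4_49d, labelled starved, lies among the fed ones.

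For each gene, the 2 other genes with the highest correlation over the 27 libraries, those 3 included, were sought among 14216 features. For sod-1 they were ucr-2.2 (0.943) and mdh-1 (0.940), and for sod-2 ndab-1 (0.961) and nduv-3 (0.956). Those closest to sod-3 were acp-5 (0.921) and spp-8 (0.919), and those closest to sod-4 were asp-4 and his-71 (0.893 each). The least well matched was sod-5, with C06A8.6 (0.743) and fbxa-95 (0.718). For ctl-1 the closest were acs-22 (0.929) and asp-3 (0.919), for ctl-2 H34I24.2 (0.927) and lro-1 (0.922), and for ctl-3 asp-3 (0.925) and Y54F10AR.2 (0.919). The highest among the metallothioneins were Y22D7AL.15 (0.954) and T12D8.5 (0.951) with mtl-1, and C14A11.2 and sfxn-1.5 (0.897 each) with mtl-2.

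Genes with related roles were read in the same comparisons. Of 25 tested peroxide and thiol enzymes, which handle hydrogen peroxide through glutathione, thioredoxin and peroxiredoxin, 2 were higher and 7 lower in starved long-term dauer, 5 and 17 in short-term dauer and 5 and 16 in control descendants (edgeR, adjusted p under 0.05). Their median log2 fold change in control descendants was -0.71. The glutathione peroxidases gpx-6 and gpx-3 were higher there (log2 fold change 2.03 and 1.45), and the glutaredoxin glrx-10 and the peroxidase gpx-1 lower (-1.48 and -1.44). In short-term dauer and control descendants most of these enzymes were thus lower in starved larvae, as were sod-1 and sod-2. Over all genes, 6.33% were called higher and 5.81% lower in long-term dauer descendants. The same shares were 30.2% and 28% in short-term dauer and 25.0% and 28.7% in control descendants. The counts of these enzymes are to be read against those shares, and the list was not tested against them.

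Of 14 tested genes of zinc and heavy metal handling, none was higher in any ancestry and 1 was lower in starved long-term dauer, 8 in short-term dauer and 9 in control descendants. At an unadjusted p under 0.05 in edgeR, 0 were higher in any ancestry as well. The cadmium-responsive genes cdr-1 and cdr-7 fell the most in control descendants (-2.60 and -2.48). No gene of this list rose as mtl-1 did. Of 22 regulators, none was called by edgeR in long-term dauer descendants (2 were higher and 1 lower at an unadjusted p under 0.05), and 4 were higher and 1 lower there without LC4_49d. In short-term dauer descendants 7 were higher and 3 lower, and in control descendants 9 and 3. The counts of metal handling genes and of regulators are likewise to be read against the shares over all genes given above. Neither list was tested against those shares. In control descendants daf-2 and daf-16 were higher (1.21 and 0.94) and hcf-1, known as a repressor of DAF-16 in the worm, and the peroxiredoxin prdx-2 lower (-0.85 and -0.45). Starved control LC6, at 621 CPM of daf-2, is among the libraries behind these values. Fold changes of the listed genes without LC6 or fed control LC12 are not given here. None of the genes on these 3 lists was called by edgeR between ancestries within a feeding state, and at most 4 of a list had an unadjusted p under 0.05 in any of those comparisons.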

How the data were processed

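Messenger RNA was sequenced in 39 libraries, and per the labels' protocols their kit was not strand-specific, so reads from a gene and an overlapping antisense gene cannot be told apart. The authors deposited raw read counts, 1 value per feature and library. Per the submitters' processing notes, Bowtie 1.1.2, HTSeq and edgeR were used, with no role given, and the genome build is not given in the sources used here. The 5 summary rows (14.4% to 19.0% of reads not aligned) were kept out, and no read was listed as aligned to several places. Names came from the Ensembl WBcel235 annotation (44443 features matched, 525 not), which also gave exon lengths.

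Tests used edgeR 4.0.16 under R 4.3.3 (TMM, filterByExpr by group, robust quasi-likelihood fit, adjusted p under 0.05) in 3 fits: 24 batch 1 libraries, 28 starved libraries with batch as a term, and 11 fed libraries. The standard error is the log2 fold change divided by the square root of F. CPM used TMM factors over all 39 libraries. Fits were tested on simulated data. All 71 pairs within a group and batch differed by more than sampling noise (lowest chi-square per degree of freedom 4.03). Alternatives were RLE scaling, library totals, no filter, DESeq2 1.42.0, a replicate block and left-out libraries. The members and the gene lists were chosen with earlier results of these data known. From each list the text names, in each direction, the 2 called genes with the largest change in control descendants. For each member it names the 2 features with the highest Pearson correlation of log2 CPM (prior count of 2, mean of at least 1 CPM). LC6, LC12, LC14 and the libraries numbered 14 were singled out after their values were seen.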

Additional observations from a re-analysis of the deposited data

Results flagged for a closer look

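Within groups of 4 to 10 libraries, with both batches pooled, 7 of 40 sets of values held a library far from the others by Dixon's test. For independent sets, chance alone gives about 2.0. These sets are not independent, since the genes share libraries, and all 7 came from the few libraries named below. In starved long-term dauer descendants, LC4_49d was the lowest for sod-3 (0.411 CPM), sod-4 (11.6 CPM) and mtl-1 (1.44 CPM) and the highest for sod-2 (64.2 CPM). In starved short-term dauer descendants, LC14 was the lowest for ctl-1 (34.3 CPM) and ctl-2 (56.1 CPM), and the library numbered 14 was the highest for mtl-1 (116 CPM). Starved control descendants were too many to be tested in this way, so control LC6 and control 14 could not be marked.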

How the results depend on the processing

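In control descendants 5 of the 6 called members (all but ctl-3, lost without starved control LC6) were called under all 30 alternatives. In short-term dauer descendants sod-2, sod-3, sod-4 and mtl-1 were called under all 30, sod-1 under 29 and mtl-2 under 23. In long-term dauer descendants the calls were less stable: sod-4 was called under 25, mtl-1 under 14 and sod-3 under 9. The number called there was 1 without a low-count filter and between 0 and 5 with 1 library left out (0 without fed LC3_40d, LC3_49d or LC4_49d or starved LC3_40d or LC3_49d, and the highest without starved short-term dauer LC14). It was 3 with RLE scaling, DESeq2 or library totals. In the other 2 ancestries the alternatives gave 6 to 8 in control and 5 to 8 in short-term dauer descendants. The libraries share numbers across groups, but 6 of 24 same-numbered pairs in batch 1 and 5 of 6 in batch 2 correlated above 0.1 (r from -0.318 to 0.837), so not every pair did, and the numbers were not taken to pair the libraries. In batch 2 this is a hint of pairing from the data. With a replicate block, 7 members were called in control, 6 in short-term dauer and 2 in long-term dauer descendants. In control and short-term dauer descendants, member counts are to be read against the large shares of all genes called in the main fit. Those shares are given in the Results. Shares over all genes under the alternatives are not given here for these ancestries. The member counts are thus not a result about the members by themselves. No block was fitted for fed long-term dauer against the other fed groups. In the 8 comparisons of ancestry or of responses, no member was called under any alternative run. Over all genes, 2356 were called in long-term dauer descendants, 4154 with DESeq2, 4869 with the block and 0 to 7929 with 1 library left out, the highest without LC4_49d. Where edgeR called 0 genes between ancestries or responses, DESeq2 called up to 20, edgeR without a filter up to 3, and edgeR without 1 library up to 98 (the long-term dauer response, without starved LC3_49d). Values below about 1 CPM (sod-5, and sod-3 in fed larvae) rest on few counts, and batch 1 groups hold 3 to 5 libraries. Library totals, the joint omissions, the correlations over 24 libraries and leaving out each library in the fit of starved larvae were chosen after seeing the data.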
